A study of Homo sapiens with 3 samples.

Results

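The sites described here are regions of the human genome that were bound by MAX and not by BMAL1, that lay outside promoters and protein-coding genes, and that carried no canonical E-box (CACGTG) at their centre. Of 13650 MAX peaks, 2171 (15.9%) met this description. The members were chosen by measured values, namely the presence of a MAX peak and the absence of a BMAL1 peak, and by position and sequence. A member shared no base with any of the 756 BMAL1 peaks (13013 MAX peaks remained), had no base within 300 bp of a transcription start site (TSS) of any annotated transcript (6014 remained), had its summit outside every protein-coding gene (2705 remained) and had no CACGTG within 100 bp of the summit. The summit is the position of highest coverage in a peak.

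The values came from chromatin immunoprecipitation and sequencing (ChIP-seq) in MDA-MB-231 cells, an adherent human cell line of breast adenocarcinoma from a pleural effusion, for which the labels give no treatment other than fixation. Chromatin from cells fixed for 10 min with 1% formaldehyde was precipitated with an antibody against BMAL1 or against MAX, and an input sample was processed in parallel. There was 1 library per antibody (11545865 tags for MAX, 13866783 for BMAL1) and 1 input library (29308882 tags), so no value has a replicate error. The tests below compare peaks or windows within the MAX library, p-values were adjusted by the Benjamini-Hochberg method within each family of comparisons, and 95% Wilson intervals cover counting error only.

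MAX is a basic helix-loop-helix leucine zipper protein that binds DNA as a dimer with MYC, with the MXD proteins, MNT or MGA, or with itself. These dimers prefer the palindrome CACGTG, and they also bind variants that differ from it by a base or a few. BMAL1 binds E-boxes together with CLOCK and drives circadian transcription. Distal regulatory elements of epithelial and mesenchymal cells are often occupied by AP-1 (dimers of FOS and JUN proteins), TEAD and RUNX factors, whose DNA motifs are distinct from the E-box.

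Of the 5 members of highest fold enrichment, 4 are shown first, because they are among the strongest MAX sites of this class. Each line gives the 101 bases centred on the summit on the plus strand of hg19. The capitals mark the searched words at these summits, which were GGAATG (TEAD), TGTTTAC (FOX), TGAGTCA (AP-1), CACGCG or its reverse complement CGCGTG (an E-box variant) and CCGGAA (ETS).
HTR5A region, chr7:154958574-154958674: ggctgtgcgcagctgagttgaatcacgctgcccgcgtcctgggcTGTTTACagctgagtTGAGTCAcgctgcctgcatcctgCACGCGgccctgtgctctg
LRFN3 region, chr19:36422547-36422647: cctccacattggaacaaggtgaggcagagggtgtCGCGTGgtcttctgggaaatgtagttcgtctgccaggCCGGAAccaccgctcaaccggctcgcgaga
IFRD1 region, chr7:112031366-112031466: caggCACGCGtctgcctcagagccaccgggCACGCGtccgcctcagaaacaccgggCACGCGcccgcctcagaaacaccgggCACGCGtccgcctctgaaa
TMEM270 region, chr7:73309427-73309527: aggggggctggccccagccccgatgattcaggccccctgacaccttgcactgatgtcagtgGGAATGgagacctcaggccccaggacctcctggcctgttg

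Each member is named here by the protein-coding gene with the nearest TSS, which says nothing about the gene it acts on. The member at chr7:154958356-154958983 lay 89776 bp downstream of HTR5A, a serotonin receptor gene, and held AP-1, FOX and CACGCG words in the same window. Its fold enrichment, the ratio of the fragment pileup at the summit to the local background taken from the input, was 26.04, with a pileup of 40 fragments over a background of 1.54. Of all MAX peaks, 98.95% had a lower fold enrichment, so the strongest members were well inside the upper range of the library.

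The member upstream of LRFN3 (chr19:36422196-36422953) reached 25.99 at 3663 bp from the TSS. The members near TMEM270, ZFP36L1, CYP27C1, MIF, FTH1 and WEE1 ranged from 22.05 to 23.38. ZFP36L1 encodes a protein that promotes decay of AU-rich mRNAs, FTH1 the heavy chain of ferritin, MIF a cytokine and WEE1 a kinase that delays entry into mitosis. Of the 10 strongest members, 9 lay more than 5 kb from the nearest coding TSS, 4 held CACGCG and 4 held the AP-1 word within 100 bp of the summit. Of all 2171 members, 99 lay under 1 kb and 260 at 1 to 5 kb from a coding TSS. CACGCG was at 7.42% of all members and the AP-1 word at 24.8%. In the highest of 4 groups ranked by fold enrichment, the AP-1 share was 23.6%, and the 10 strongest were not tested against the others. In 2 of the 10, those near LRFN3 and IFRD1, CACGTG was found elsewhere in the peak, as it was in 9.26% of all members.

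The region near IFRD1, a gene for a transcriptional coregulator, held an array of CACGCG words. A pair of neighbouring members, separated by 76 bp, lay in the long noncoding RNA gene ZNF277-AS1. The member at chr7:112031212-112031677 had a fold enrichment of 24.16 and 7 copies of CACGCG on either strand, and the member at chr7:112031754-112032311 had 17.93 and 9 copies. Between the outermost copies, which were 806 bp apart, the reference held 18 copies. At the summit of the stronger member, 4 successive copies were spaced at exactly 26 bp, as can be read in the sequence above. The summit of the weaker member is shown because it carries the same repeat with more changes, again in capitals:
IFRD1 region, weaker member, chr7:112032124-112032224: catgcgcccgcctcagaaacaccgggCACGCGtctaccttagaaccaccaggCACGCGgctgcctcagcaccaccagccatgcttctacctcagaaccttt
Both members had an input background at the genome-wide expectation of the library (1.28), with pileups of 31 and 23 fragments. The stronger member also held 1 CACGTG away from the summit, and the weaker held none. Within 100 bp of the summit, the stronger member held 5 copies, more than any other member, and the weaker held 3, as did 2 members elsewhere.

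Over all 2171 members, fold enrichment had a median of 8.91, with quartiles at 7.46 and 10.8 and a range from 1.97 to 28.21. The pileup had a median of 17 fragments and a 90th percentile of 25, so most members rested on few fragments. Peak length had a median of 396 bp and the background a median of 1.97. MAX enrichment was lower at the members than at MAX-only sites with an E-box or at promoters. Of the members, 37.7% (35.7 to 39.7) exceeded the median fold enrichment of all MAX peaks (9.73), a level that 49.8% of all MAX peaks exceeded. The share was 55.6% at distal MAX-only sites with CACGTG (n = 1202, odds ratio 0.48, Fisher's exact test, two-sided, adjusted exact p = 5.23e-23) and 50.8% at promoter MAX-only sites without it (n = 5739, adjusted exact p = 4.54e-25).

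No such difference was found against distal sites inside genes. MAX-only sites that likewise lacked CACGTG but lay inside protein-coding genes exceeded the same median in 37.0% of 2641 cases (35.1 to 38.8), and the difference from the members was not significant (odds ratio 1.03, adjusted exact p = 0.683). Peak length was also lower at the distal sites without CACGTG, with 36.8% of members, 35.8% of intragenic sites, 44.7% of distal sites with CACGTG and 54.3% of promoter sites longer than the median of all MAX peaks (446 bp, exceeded by 49.9% of all). Here, too, the members differed from the sites with CACGTG (adjusted exact p = 1.53e-05) and from promoters (adjusted exact p = 1.17e-43) but not from intragenic sites (adjusted exact p = 0.643).

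**Figure D1:**
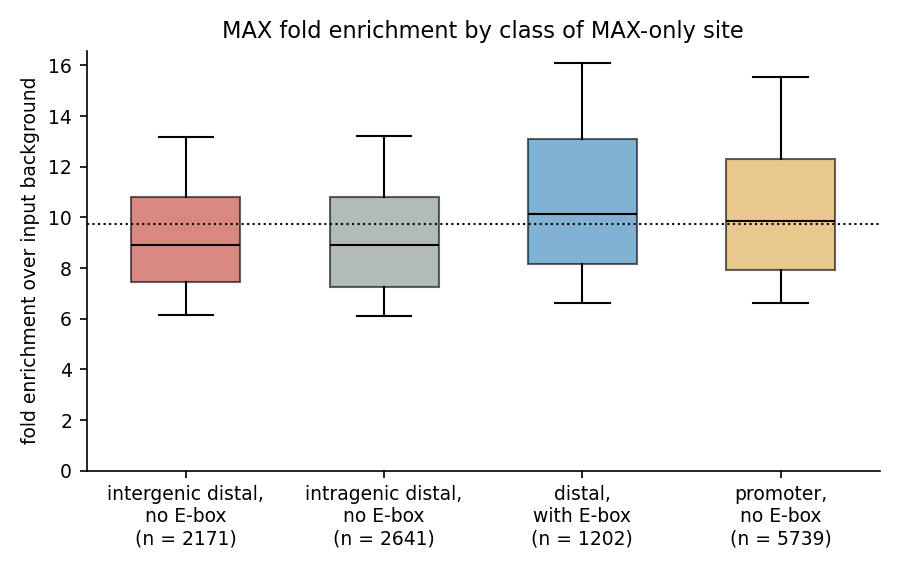
MAX fold enrichment (ratio to the input background, y axis) in 4 classes of MAX-only site. Boxes span the quartiles with the median as a line, whiskers reach the 10th and 90th percentiles over sites, and the dotted line is the median of all MAX peaks (9.73). The medians of both distal classes without E-box are 8.91, below that of distal sites with E-box (10.2).

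Lack of CACGTG at the summit did not mean that E-box variants were lacking. CACATG was found within 100 bp of the summit in 586 members (27.0%, 25.2 to 28.9) against 13.3% of 4342 windows of the same length centred 2 kb to either side of the same summits (odds ratio 2.42, adjusted exact p = 1.85e-39). CACGCG was found in 161 members (7.42%, 6.39 to 8.60) against 0.990% of the flanking windows (odds ratio 8.01, adjusted exact p = 7.36e-41). Among all MAX peaks, 16.8% held CACATG and 13.3% held CACGCG. Both CATGCG (5.39% against 2.40%) and CACGTT (5.02% against 2.97%) were also more frequent at the summits, whereas CAAGTG was less frequent (11.1% against 13.9%, adjusted exact p = 0.00344). Any of these 5 variants occurred in 1022 members (47.1%, 44.98 to 49.2) and in 30.2% of flanking windows, with 43.0% among all MAX peaks. The loose pattern CANNTG, which holds any E-box, was at 70.8% of summits and 68.0% of flanking windows (odds ratio 1.14, adjusted exact p = 0.0488). It includes CACGTG, which the rule removed at the summits and not in the flanking windows, so the selection partly set this comparison.

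Of the 4 strongest members with CACATG, 3 are shown with this word in capitals, because it is the most frequent variant, with their distance from summit to word.
FTH1 region, chr11:61793058-61793103, plus strand, 44 bp: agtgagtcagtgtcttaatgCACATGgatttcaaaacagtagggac
NINJ1 region, chr9:95882313-95882358, minus strand, 44 bp: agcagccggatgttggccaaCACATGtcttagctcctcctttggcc
CDK6 region, chr7:92533824-92533869, plus strand, 0 bp: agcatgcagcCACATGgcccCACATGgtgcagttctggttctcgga
In the member near CDK6, which encodes a cyclin-dependent kinase of the G1 phase, the word occurred in 2 copies, of which 1 covered the summit itself, and the fold enrichment was 20.77. The members near FTH1 and NINJ1 had fold enrichments of 22.44 and 21.83.

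The most frequent motif of another factor was that of AP-1. The word TGAGTCA was found in 538 members (24.8%, 23.0 to 26.6) and in 3.02% of the flanking windows (odds ratio 10.6, adjusted exact p = 1.53e-153). Over all MAX peaks the share was 13.6%. It was higher at the members than at distal MAX-only sites with CACGTG (17.6%, adjusted exact p = 3.73e-06) and than at promoter sites (4.97%, adjusted exact p = 2.10e-127), and did not differ significantly from that at intragenic sites without CACGTG (24.99%, adjusted exact p = 0.914). AP-1 words are shown for the strongest members after that near HTR5A, whose AP-1 word is in the sequence given above.
CYP27C1 region, chr2:127984430-127984476, minus strand, 61 bp from the summit: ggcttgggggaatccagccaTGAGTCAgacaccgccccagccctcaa
FTH1 region, chr11:61793040-61793086, plus strand, 26 bp from the summit: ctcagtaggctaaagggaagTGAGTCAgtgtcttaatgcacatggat
In the member near FTH1, the AP-1 word and the CACATG word lie side by side in the same short stretch. Over all members, the AP-1 word was found in 26.1% of the 586 members with CACATG and in 24.3% of the 1585 without it, a difference that did not pass the test (odds ratio 1.10, adjusted exact p = 0.702). It was less frequent beside CACGCG (10.6% of 161 against 25.9% of 2010, odds ratio 0.34, adjusted exact p = 9.54e-06) and beside a GC box (13.3% of 368 against 27.1%, adjusted exact p = 4.36e-08). However, 99 of these 161 and 175 of these 368 members were CpG-dense, a class described below. In that class the AP-1 word was at 5.75%, against 28.4% of the other members. The part of CpG density in these pairings was not tested.

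Motifs of other enhancer factors were also more frequent at the summits. The RUNX word TGTGGTT was found in 197 members (9.07%) and 3.73% of flanking windows (odds ratio 2.57, adjusted exact p = 4.03e-17), with 5.19% among all MAX peaks. The TEAD word GGAATG was found in 431 members (19.9%) and 10.5% of flanking windows (odds ratio 2.11, adjusted exact p = 2.77e-23), with 13.4% among all MAX peaks. The CTCF consensus, the motif of a protein that bounds chromatin loops, was rare and had a high ratio: 60 members (2.76%, 2.15 to 3.54) held it against 0.369% of flanking windows (odds ratio 7.69, adjusted exact p = 1.56e-15) and 2.11% of all MAX peaks. CTCF was the single motif of the 24 compared that was more frequent at the members than at intragenic sites (1.74%, odds ratio 1.60, adjusted exact p = 0.0337), and it was less frequent at the members than at distal sites with CACGTG (4.41%, adjusted exact p = 0.0241).
TRIB2 region, RUNX, chr2:12443661-12443707, plus strand: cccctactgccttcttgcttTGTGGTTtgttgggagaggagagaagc
LOXL1 region, RUNX, chr15:74249224-74249270, minus strand: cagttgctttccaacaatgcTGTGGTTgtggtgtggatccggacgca
ABHD4 region, TEAD, chr14:23083247-23083292, minus strand: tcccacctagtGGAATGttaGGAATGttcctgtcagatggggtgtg
These members are among the strongest that carry the words in capitals. They had fold enrichments of 18.46, 17.93 and 19.58. LOXL1 encodes an enzyme that crosslinks elastin and TRIB2 a pseudokinase.

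Motifs typical of promoters were less frequent at the members than at promoter sites. The GC box GGGCGG was found in 368 members (17.0%) and in 51.3% of promoter sites without CACGTG (odds ratio 0.19, adjusted exact p = 7.24e-180), with 34.4% among all MAX peaks. The ETS word CCGGAA was found in 144 members (6.63%) and in 20.9% of promoter sites (adjusted exact p = 3.12e-58), with 13.8% among all MAX peaks. Both words were nonetheless more frequent at the members than in their flanking windows. The GC box was in 7.51% of the flanking windows (odds ratio 2.51, adjusted exact p = 8.22e-29) and the ETS word in 2.12% (odds ratio 3.28, adjusted exact p = 5.81e-18). Against their own flanks, 16 of the 24 motifs were more frequent at the members, 3 were less frequent (CAAGTG, the GATA word AGATAA and the T-box word AGGTGTGA) and 5 did not pass the test. Against intragenic sites, 23 of 24 did not pass. The 24 include the pooled E-box variants and the pattern CANNTG. The motifs without a significant difference from the flanks were CRE (TGACGTCA), NF-Y (CCAATCA or CCAATCG), C/EBP (TTGCNNAA) and the NF1 and NRF1 consensus. The remaining ones that were more frequent at the summits were FOX (TGTTTAC, 5.57% against 2.79%), E2F (GCGGGAA, 3.55% against 1.06%), STAT (TTCCNGGAA, 1.24% against 0.507%) and the NF-kB consensus (6.50% against 4.58%). All words were searched on both strands, the NRF1 consensus contains CATGCG, and a match is a sequence feature, not evidence of binding by the named factor.

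Base composition moved with these differences. The 201 bp windows at the summits had a median GC content of 54.7% and the flanking windows 47.3%. Among windows with 45 to 55% GC (872 summits and 1705 flanking windows), AP-1 (30.1% against 2.76%, odds ratio 15.2), RUNX (odds ratio 4.12), CACATG (35.2% against 14.5%, odds ratio 3.21), TEAD (odds ratio 2.30), CTCF (odds ratio 6.44), CACGCG (odds ratio 3.06) and CACGTT (odds ratio 2.10) remained more frequent at the summits, with adjusted exact p of 0.00406 or lower over 17 motifs. So did ETS (4.59% against 2.29%, odds ratio 2.05, adjusted exact p = 0.00406), FOX (7.11% against 2.11%, odds ratio 3.55, adjusted exact p = 4.94e-09) and STAT (odds ratio 4.34, adjusted exact p = 0.00899). The T-box word remained less frequent (odds ratio 0.303, adjusted exact p = 7.16e-05). The GC box (6.65% against 6.22%, adjusted exact p = 0.671), CATGCG (4.59% against 3.40%, adjusted exact p = 0.190), E2F (adjusted exact p = 0.174) and the NF-kB consensus (adjusted exact p = 0.551) no longer passed the test. GATA words, which were fewer at the summits over all windows, were at 7.57% against 6.39% in these windows (adjusted exact p = 0.320), and CAAGTG was at 14.1% against 17.0% (adjusted exact p = 0.0866).

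**Figure D2:**
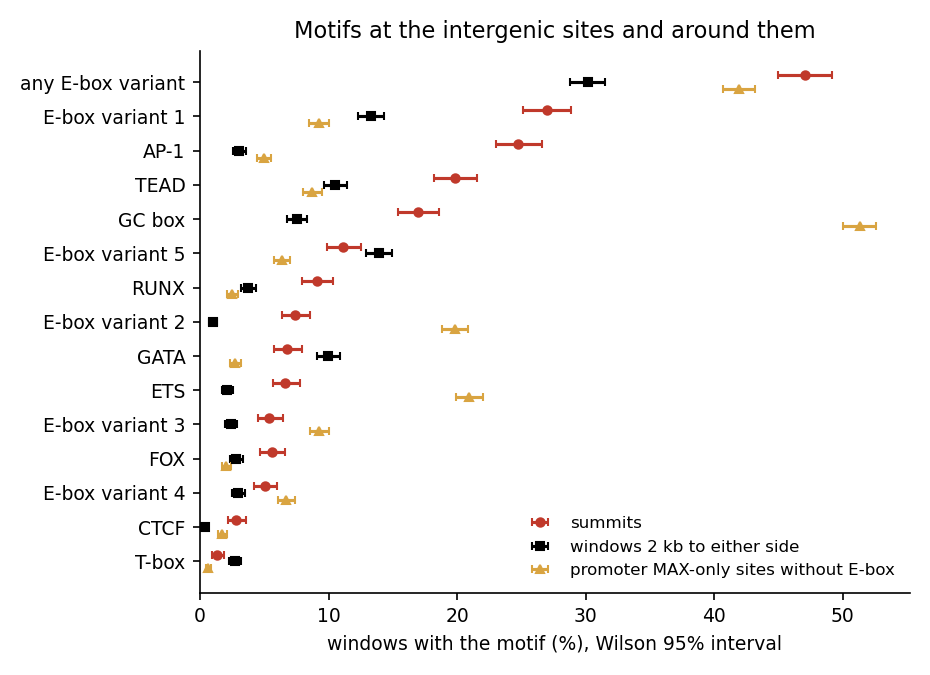
Share of 201 bp windows with each motif (x axis, percent, with 95% Wilson intervals) at the 2171 intergenic summits, in 4342 windows 2 kb to either side and at 5739 promoter sites without E-box. E-box variant 1 is CACATG, variant 2 is CACGCG, variant 3 is CATGCG, variant 4 is CACGTT and variant 5 is CAAGTG. AP-1 stands at 24.8% of summits and 3.02% of flanks, while the GC box is at 51.3% of promoter sites.

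Most of these words were denser at the summit than outside the peak. AP-1 words had a density of 1.48 per kb within 50 bp of the summit and 0.246 per kb at 400 to 500 bp from it, a ratio of 6.02. The ratio was 6.27 for CTCF, 2.96 for CACGCG, 2.71 for CACATG and 2.56 for RUNX, and 0.569 for GATA.

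**Figure D3:**
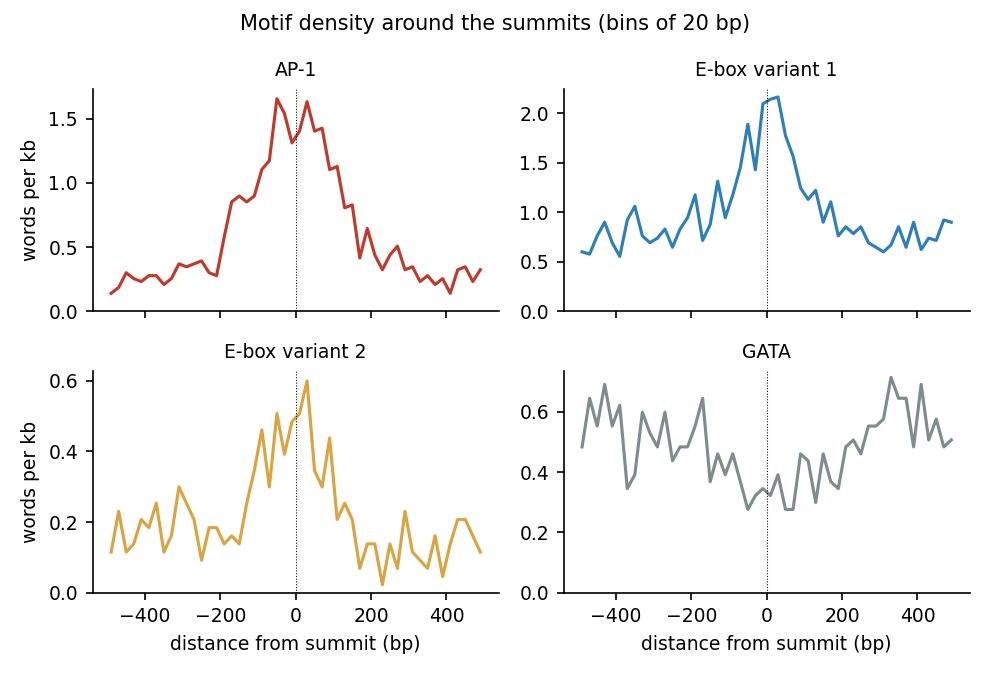
Density of motif words (y axis, words per kb, bins of 20 bp) against distance from the summit (x axis, bp) over the 2171 members for AP-1, CACATG (E-box variant 1), CACGCG (E-box variant 2) and GATA. The first 3 are denser within 50 bp of the summit than at 400 to 500 bp, while GATA words are fewer there. AP-1 words have a density of 1.48 per kb within 50 bp, and their densest bin (1.66 per kb) is centred 50 bp from the summit.

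A scan of all words of 7 bases placed the AP-1 word first by p-value. Of 8188 words tested against the flanking windows, 1858 (22.7%) were more frequent at the summits and 1569 (19.2%) were less frequent. Of the words more frequent at the summits, 57.3% contained CG, against 33.7% of all words tested and 3.63% of the words less frequent there. Among called words found at 20 or more summits, those with the largest odds ratios were CGCGTTC (14.1), CGCGGTC (12.1), the AP-1 word TGACTCA (10.6), CACGCGG (9.54), ACGCTTC (8.55), CACGCGC (8.49), CCACGCG (8.48), CACGCGA (8.08), CGCGTGC (7.69) and AATGCGT (7.06). Of these 10 words, 5 contain CACGCG on either strand. The words most depleted were AT-rich, led by ATATAAT (5 summits and 165 flanking windows, odds ratio 0.058). In the windows with 45 to 55% GC, 352 words were more frequent at the summits, of which 17.3% contained CG, and the AP-1 word again had the lowest p-value.

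Members with CACGCG at the summit, and likewise those with the variant CATGCG or with the variant CACATG, had higher MAX enrichment, and no significant difference was found for the other variants or for AP-1. Of the 161 members with CACGCG, 52.2% (44.5 to 59.8) exceeded the median of all MAX peaks, against 36.5% of the others (odds ratio 1.90, adjusted exact p = 7.74e-04 over 12 comparisons). The corresponding shares were 51.3% and 36.9% for CATGCG (adjusted exact p = 0.00909), 42.0% and 36.1% for CACATG (adjusted exact p = 0.0379), 43.2% and 36.6% for the GC box (adjusted exact p = 0.0436) and 42.1% and 33.8% for any variant (adjusted exact p = 7.74e-04). The shares were 41.3% with and 37.5% without CACGTT (adjusted exact p = 0.503), and 32.8% with and 38.3% without CAAGTG (adjusted exact p = 0.157). With the AP-1 word, 35.1% exceeded the median, against 38.5% without it (adjusted exact p = 0.222). The background moved with the CACGCG comparison, with a median of 1.75 in the members that hold CACGCG and 1.97 in the others, while the median pileups were 18 and 17 fragments. The part of background in the difference was not tested. Of the 161 members with CACGCG, 99 were also CpG-dense, a class described below, and the part of CpG density was not tested either.

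With the members ranked by fold enrichment into 4 groups of equal size, the share with CACGCG was 4.60% in the lowest group, 5.16% and 8.12% in the middle groups and 11.8% in the highest. The share with any variant went from 42.2% to 54.3%. The AP-1 share was 24.5% in the lowest group and 23.6% in the highest, with overlapping intervals in all groups. The 201 members (9.26%) with CACGTG elsewhere in the peak had a median fold enrichment of 9.76, against 8.88 for the 1970 members without it, and were longer (medians of 511 and 389 bp).

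**Figure D4:**
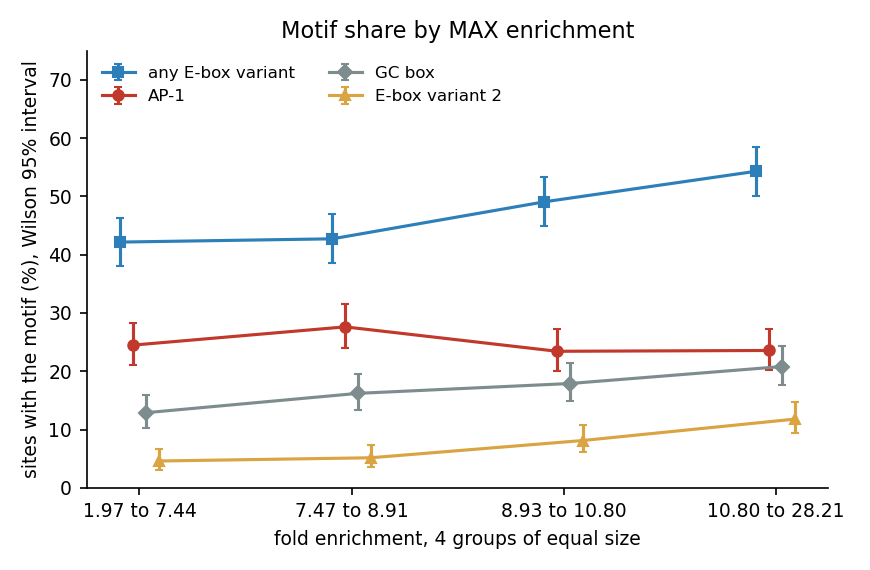
Share of members with a motif within 100 bp of the summit (y axis, percent, with 95% Wilson intervals) in 4 groups ranked by MAX fold enrichment (x axis, lowest to highest value of each group, 542 or 543 members each). E-box variant 2 is CACGCG, which goes from 4.60% to 11.8%, while AP-1 is between 23.4% and 27.6%.

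A minority of the members was CpG-dense. A window was called CpG-dense when its GC content was over 50% and its ratio of observed to expected CG was over 0.6. This held for 348 members (16.0%, 14.6 to 17.6), for 14.8% of intragenic sites (adjusted exact p = 0.331), for 78.4% of promoter sites and for 48.6% of all MAX peaks. The CpG-dense members held the GC box in 50.3% of cases (10.6% of the other members, adjusted exact p = 8.02e-58), CACGCG in 28.4% (3.40%, adjusted exact p = 1.58e-42) and the ETS word in 15.8% (4.88%, adjusted exact p = 3.34e-11). The AP-1 word was found in 5.75% of CpG-dense and 28.4% of other members (odds ratio 0.15, adjusted exact p = 4.13e-23), CACATG in 8.05% and 30.6% (adjusted exact p = 5.35e-21), TEAD in 8.91% and 21.9%, and RUNX in 0.862% and 10.6%. CG-containing words are favoured by the definition of the class, which bears on the GC box, CACGCG and ETS shares. Words without CG are disfavoured by the same definition, which bears on the AP-1, CACATG, TEAD and RUNX shares. None of these shares is therefore independent of how the class was defined.

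The CpG-dense members also differed in measures that their definition did not use. Fold enrichment exceeded the median of all MAX peaks in 50.3% of them and in 35.3% of the others (odds ratio 1.86, adjusted exact p = 2.06e-07), at a median pileup of 17 fragments in both and a median background of 1.68 and 1.97. A protein-coding TSS lay within 50 kb of 78.7% of them and of 60.3% of the others (odds ratio 2.44, adjusted exact p = 2.90e-11), and the median distances were 13.2 and 35.0 kb. The share inside a noncoding gene was 23.3% and 28.3% (adjusted exact p = 0.0574).

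**Figure D5:**
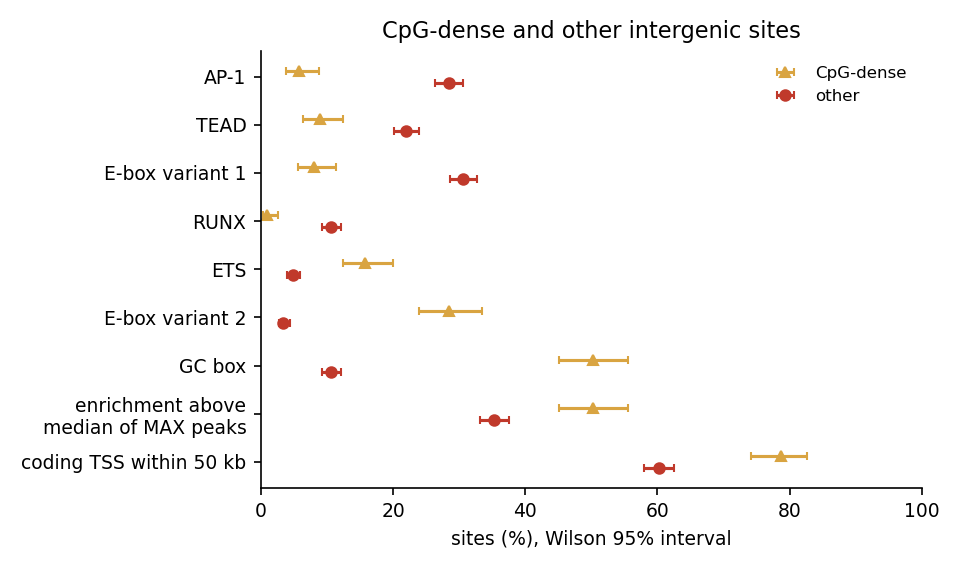
Share (x axis, percent, with 95% Wilson intervals) of 348 CpG-dense and 1823 other members with each motif within 100 bp of the summit, with fold enrichment above the median of all MAX peaks and with a coding TSS within 50 kb. E-box variants 1 and 2 are CACATG and CACGCG. GC boxes are at 50.3% of CpG-dense members, and AP-1 is at 28.4% of the others.

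Most members were not remote from genes. The summit lay a median of 30.7 kb from the nearest protein-coding TSS (quartiles 9.27 and 82.8 kb), and 63.2% (61.2 to 65.2) were within 50 kb. Under 1 kb there were 99 members, between 10 and 50 kb 796, and beyond 500 kb 49. Intergenic MAX-only sites with CACGTG were within 50 kb in 68.5% of 534 cases (odds ratio 0.79, adjusted exact p = 0.0369, or 0.0233 before adjustment). This difference kept its direction under all 9 alternative settings, which were judged by Fisher's exact test without adjustment. It did not pass under 5 of them, and the other 4 passed with unadjusted p up to 0.0427. Median fold enrichment in the distance classes was between 8.57 and 9.07 and showed no order with distance. Noncoding genes held 597 member summits (27.5%), of which 580 were in long noncoding RNA genes.

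Sites that overlap a BMAL1 peak had been removed by definition. A BMAL1 peak lay within 1 kb of 18 members, within 10 kb of 76 (3.50%) and within 50 kb of 230 (10.6%), and the median gap was 613 kb, against 586 kb for intragenic sites. Of the 5 members whose nearest coding gene within 50 kb was a clock gene, 3 were at BHLHE40 (also called DEC1), a repressor of CLOCK and BMAL1, with the strongest at 11.01. The strongest clock member (chr9:94186822-94187502, 11.11) was 1262 bp upstream of NFIL3, which encodes a repressor of the clock output, and the weakest, at 6.0, was 3106 bp downstream of a TSS of PER1. Clock genes accounted for 0.230% of members, 0.249% of all MAX peaks and 0.265% of intragenic sites.

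Genes of AP-1 subunits were near 8 members (0.369%, against 0.190% of all MAX peaks and 0.151% of intragenic sites). The strongest were 1349 bp upstream of FOS (chr14:75743927-75744744, fold enrichment 14.39), 1565 bp upstream of FOSL2 (chr2:28613470-28613993, 14.03) and 31280 bp upstream of JUN (chr1:59280701-59281297, 11.42). None of these 3 held the AP-1 word at the summit, and of the 8, 1 did (FOSL2, 7.33). FOSL1 and JUND were the other genes of this list with a member.

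Genes of the mesenchymal and basal-like state of such cells were near 20 members (0.921%, against 0.549% of all MAX peaks and 0.719% of intragenic sites), at 13 of 37 genes. The strongest were a pair downstream of CCN1, a matricellular target of YAP and TEAD, at 15.74 and 14.43 (chr1:86072556-86073406 and chr1:86077605-86078073), and a member 1241 bp upstream of THBS1 (chr15:39871704-39872310, 13.98), which encodes thrombospondin. CCN2, a related gene, had a member with both AP-1 and TEAD words (8.21). Luminal genes were near 5 members (0.230%, against 0.0952% of all MAX peaks and 0.0757% of intragenic sites), with the strongest at ELF3 (9.03), CDH1 (8.88) and KRT19 (8.46). Genes of TGF-beta and Hippo feedback were near 4 (0.184%, against 0.168% of all MAX peaks and 0.303% of intragenic sites), at SMAD7 (16.68), SMAD3 (15.87 and 9.35) and LATS2 (10.79). MLXIP was the gene of the MYC and MAX network with a member within 50 kb (12.27), which is 0.0461% of members against 0.147% of all MAX peaks and 0.0757% of intragenic sites. These are counts by nearest gene, and nothing particular to a list was tested.

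Members were spread over 1546 nearest genes, 1164 of them with 1 member. The gene nearest to the most members was MYC, with 12 at 70942 to 817841 bp from its TSS and fold enrichments between 4.23 and 20.15 (median 7.55). The long noncoding RNA gene PVT1, which lies beside MYC, held 11 member summits, more than any other noncoding gene. MN1 followed with 8 members (7.79 to 12.47), KLF6, a zinc finger gene, with 7 (7.59 to 13.99, the nearest at 1489 bp), ZNF706 with 7, and then 8 genes with 6 members each, among them AUH, USP12 and METRNL. These counts were not set against all MAX peaks or against the spacing of coding genes. On chromosome 8, which holds MYC, 23.1% of MAX peaks were members, against 15.9% of all MAX peaks. Shares near this were found on chromosomes 13 (22.4%) and 20 (21.2%), and the lowest was 9.52% on chromosome 4.

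Of the members, 339 (15.6%) had another member within 5 kb and 876 (40.4%) within 50 kb, and these shares were not compared with those of other classes. Joined at the gap commonly used to stitch enhancers, 516 members (23.8%, 22.0 to 25.6) formed 224 runs, of which 179 had 2 members and 2 had 6. A run of 6 lay near IER2, an immediate early gene, and STX10 (chr19:13253830-13283584, fold enrichments from 5.71 to 11.42), and the other run of 6 lay upstream of PTK2, which encodes focal adhesion kinase (chr8:142028934-142053750, 5.26 to 6.66, median background 3.31). Runs of 5 lay near DDIT4 and DNAJB12 (chr10:74056994-74092442, up to 12.27) and CALML3 (chr10:5587906-5606465, up to 15.23), and a run of 4 near IRF2BPL (chr14:77413498-77428553) had fold enrichments from 9.53 to 14.74.

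The input background of members differed between chromosomes. It is tied to fold enrichment by its definition as pileup divided by fold enrichment, and no association over chromosomes was tested. The median background of members was 2.60 on both chromosome 8 and chromosome 20, 2.25 on chromosome 17, 1.28 on chromosome 4 and 1.30 on chromosome 7. The median fold enrichment was 7.54 on chromosome 8, 7.62 on chromosome 20, 8.05 on chromosome 17, 9.52 on chromosome 4 and 10.1 on chromosome 7. The median pileups on chromosomes 8, 20 and 7 were 20, 21 and 15 fragments. The members on chromosomes 8 and 20 thus had more fragments and lower fold enrichment than those on chromosome 7. A background over 5 was found at 14 members. The highest were at chr18:108001-108550 (background 129.9, pileup 256, fold enrichment 1.97) and chr21:9827017-9827513 (background 89.9, pileup 268, fold enrichment 2.98), which were also the members with the highest pileups and the lowest fold enrichments.

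The thresholds of the rule cut through similar peaks. The member nearest to a TSS was at 301 bp (chr16:21530731-21531030, 10.91), and the nearest peak excluded by this criterion was at 298 bp (chr9:100461502-100461831, 10.41). The member with the closest CACGTG, whose far end lay 101 bp from the summit, had a fold enrichment of 11.17, and the closest excluded peak, at 100 bp, had 10.15. The member closest to a protein-coding gene was 36 bp outside it (7.62), and the excluded peak least deep inside was 33 bp within IRF2BPL (11.69). The weakest member by -log10 p was at 5.23.

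No motif searched was found within 100 bp of the summit in 273 members (12.6%, 11.2 to 14.0), 695 held 1 of the 22 motifs and 1203 (55.4%) held 2 or more. Neither the AP-1 word nor an E-box variant was present in 861 members (39.7%). These counts were not compared with flanking windows or with other classes of site, so they do not mark a trait of the members. Short words are also common elsewhere: any E-box variant was in 30.2% of flanking windows and 48.7% of intragenic sites.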

How the data were processed

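BMAL1, MAX and input libraries of MDA-MB-231 cells (1 each) were used. The authors aligned reads to hg19 with BWA 0.6.2 and called peaks per antibody against the input with MACS2 2.0.9. The deposited pileup is the coverage signal of tags extended to 300 bp. The deposited fold enrichment is the ratio of the pileup to the local input background, and the background here is pileup divided by fold enrichment. The authors' peak caller also wrote -log10 p and q values. Every listed peak entered, down to the header's p cutoff of 1.00e-05 (1e-08 in the methods). MAX tags were limited to 1 per position and BMAL1 tags to 2.

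Peaks were joined to GENCODE release 44 on GRCh37, the assembly named hg19 (scipy 1.17.1, pandas 2.3.3, pysam 0.24.0). Overlap meant 1 bp or more. Motif words were searched on both strands in 201 bp windows at summits and 2 kb to either side, and shares were compared by two-sided Fisher's exact tests with Benjamini-Hochberg adjustment at 0.05. Sites of 1 library are not replicates, and neighbouring sites may not be independent. The word tests were tested on simulated windows in which summits and flanks had the same base composition. The real windows differ in GC content, a setting that the simulation did not cover. The members, motifs and gene lists were chosen with earlier results of these data known. Named sites were the 10 strongest members (1 is not reported here), the 5 largest runs joined at 12.5 kb, the 5 genes nearest to most members (the last place is a tie of 8 genes), up to 3 members per gene list (further members of these lists were named after their values were seen, as were the CACGCG array and the chromosomes), and members at the thresholds. Words are the 10 of largest odds ratio among called words at 20 or more summits. Alternatives varied the p cutoff, the TSS distance, the gene annotation, the E-box criteria, the windows and the flanks.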

Additional observations from a re-analysis of the deposited data

How the results depend on the processing

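The share with the AP-1 word and the share with any E-box variant stayed above the flanks under all 13 alternatives run for each, and MAX enrichment stayed below that of distal sites with CACGTG under all 10. The number of members was 949 at p of 1e-12 or lower and 1352 with no TSS within 5 kb. The share of members within 50 kb of a coding TSS was no longer significantly different from sites with CACGTG at p of 1e-08 or lower (63.7% against 67.4%, p = 0.141), at p of 1e-12 or lower (64.0% against 68.7%, p = 0.124), with no TSS within 5 kb (54.6% against 59.7%, p = 0.106), with summits outside every annotated gene (68.0% against 72.4%, p = 0.102) and with 1 TSS per coding gene (58.1% against 62.5%, p = 0.0692), by Fisher's exact test without adjustment. The odds ratio was between 0.767 and 0.850 over all 9 alternatives, against 0.790, and the cause of the lost calls was not tested. The share with another member nearby was 14.5% at p of 1e-12 or lower, 21.7% with no TSS within 5 kb, 21.9% with no CACGTG anywhere in the peak, 15.6% within 5 kb and 40.4% within 50 kb; fewer members or another distance enter these values by construction. The number of words of 7 bases called was 2133 in windows of 50 bp either side, and 757 in windows with 45 to 55% GC, an alternative added after the data were seen, in which fewer windows are tested. The share of bases in repeats, and windows with few repeats, were not run because the reference sequence used here marks no repeats. No paired analysis was possible because each antibody had 1 library. The pileup at members had a median of 17 fragments and a minimum of 9. Sites below the peak cutoff may be missing at this depth, and the detection limit was not tested. The absence of a BMAL1 peak means that none passed the cutoff.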
